A study of Mus musculus with 6 samples.

Results

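The genes described here encode metabotropic glutamate receptors, the G-protein-coupled receptors of the transmitter glutamate. They were chosen by gene symbol alone: Grm5 from group I of the family, Grm2 and Grm3 from group II, and Grm4, Grm7 and Grm8 from group III. All 6 genes were found, each on 1 row, among the 16060 rows of the table that the authors deposited. Hippocampal RNA was sequenced from 3 mice labelled Control and 3 mice labelled MA, with 1 library per mouse. All were C57BL/6 mice, described in the methods as adult males. The control group received saline by intraperitoneal injection. Mice labelled MA received methamphetamine (MA), a psychostimulant, at 5 mg/kg in week 1, 10 mg/kg in week 2 and 15 mg/kg in week 3, and both groups went through behavioral tests on day 22 before the tissue was taken. The RNA came from whole hippocampus, so fewer cells of a type and less RNA per cell cannot be told apart. The sign of every MA minus Control value rests on the deposited column labels, which are in some doubt. The paper reports Arc as upregulated by MA, while Arc was lower in the libraries labelled MA. If the labels were exchanged, every such sign would turn. No measured value here settles this.

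Metabotropic glutamate receptors tune synapses rather than carry fast transmission. Group I receptors couple to Gq proteins and phospholipase C, sit mainly beside the postsynaptic density, and are tied there to Homer and Shank scaffolds. Receptors of groups II and III couple to Gi and Go proteins, lower cyclic AMP and mostly restrain transmitter release from the presynaptic side. In the hippocampus mGlu2 is known on the mossy fibers of dentate granule cells, mGlu3 on both neurons and astrocytes, and mGlu7 in the active zone of presynaptic terminals. Other members of the family were not analysed here.

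Values are given as deposited, on a scale read as log2 of RPKM (reads per gene, scaled by gene length and library size) plus 1, or back-transformed to RPKM where that is stated. Sequencing depth cannot be read from the table, and intervals that rest on read numbers are therefore left out. The libraries had been brought to a near-common distribution before deposit, with the same highest value of 12.298 in all 6. MA replicate 3 differed at the low end: 0 of its genes were at 0, and its lowest value was 0.000206. The other libraries had between 259 and 437 genes at 0. The cause was not tested. Across tested genes, the mean Pearson correlation with the remaining libraries of the same group was at least 0.991 for the control libraries and 0.984, 0.985 and 0.978 for MA replicates 1, 2 and 3. Markers of dentate granule, CA1 and CA3 cells were found in the libraries of both groups, and the dentate sums are given beside Grm2. In back-transformed RPKM, CA1 markers summed to 137.5 to 159.7 in the control libraries and 124.5 to 140.5 in the MA libraries. CA3 markers summed to 131.9 to 170.0 in the control libraries and 131.4 to 179.4 in the MA libraries. Choroid plexus markers, from a tissue that lines the ventricle next to the hippocampus, differed between the groups: all 8 had higher means in the libraries labelled MA, 5 of them passed the test described below, and their summed back-transformed level was between 64.7 and 420.2 in the control libraries and between 1778 and 5084 in the MA libraries. The part of this tissue in the receptor values was not tested.

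Of the 6 receptor genes, Grm2 on chromosome 9 is the most compact, spanning 13.0 kb of GRCm38, and Grm7 on chromosome 6 spans 921.6 kb. The exonic length that GENCODE annotates ran from 3.05 kb for Grm3 to 10.25 kb for Grm5. Exons of Grm2 overlap the antisense gene Gm28111 and those of Grm7 the antisense gene Gm20387, and no strand setting is given in the sources used here, so reads of these pairs may not be separated. RefSeq start sites were found for 4 of the 6 genes (Grm2, Grm3, Grm7 and Grm8) on GRCm38.p6. The 250 bases before the first listed start site of each follow, 5′ to 3′ on the gene's strand, so that these upstream sequences can be set beside the different levels of the 4 genes. Capitals mark matches to the GC box (GGGCGG) and the CCAAT box (CCAAT), searched on both strands, and in Grm2 a match of each shares a base.
Grm2, chr9:106656110-106656359, minus strand: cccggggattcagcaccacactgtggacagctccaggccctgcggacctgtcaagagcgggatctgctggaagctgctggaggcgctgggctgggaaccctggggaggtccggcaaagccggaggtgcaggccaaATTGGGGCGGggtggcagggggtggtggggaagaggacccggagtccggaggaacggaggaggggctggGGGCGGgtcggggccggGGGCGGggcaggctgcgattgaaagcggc
Grm3, chr5:9725353-9725602, minus strand: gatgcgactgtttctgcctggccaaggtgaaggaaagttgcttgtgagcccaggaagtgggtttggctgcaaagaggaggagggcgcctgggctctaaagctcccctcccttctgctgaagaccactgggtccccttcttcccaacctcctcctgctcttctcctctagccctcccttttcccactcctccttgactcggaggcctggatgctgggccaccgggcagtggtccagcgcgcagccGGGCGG
Grm7, chr6:110645262-110645511, plus strand: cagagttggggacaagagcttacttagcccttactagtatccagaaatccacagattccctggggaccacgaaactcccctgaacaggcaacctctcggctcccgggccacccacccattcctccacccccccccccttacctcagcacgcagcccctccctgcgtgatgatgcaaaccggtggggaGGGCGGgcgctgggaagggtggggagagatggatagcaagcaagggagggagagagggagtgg
Grm8, chr6:28135147-28135396, minus strand: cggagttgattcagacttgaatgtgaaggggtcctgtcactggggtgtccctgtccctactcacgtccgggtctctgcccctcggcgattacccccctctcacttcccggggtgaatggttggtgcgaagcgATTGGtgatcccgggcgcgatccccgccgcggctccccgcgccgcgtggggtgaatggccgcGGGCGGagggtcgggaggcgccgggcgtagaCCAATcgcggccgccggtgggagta
All 4 of these windows were richer in G and C than the median window of 52.4%, at 71.2% for Grm2, 62.4% for Grm3, 62.0% for Grm7 and 68.4% for Grm8. Each of the 4 held at least 1 GC box, a word present in 32.7% of the 32851 RefSeq windows of this length, and Grm2 held 3. A CCAAT box stood once before Grm2 and 2 times before Grm8, and 33.8% of all windows hold one. None of the 4 windows held the CRE (TGACGTCA, 1.55% of all windows), the AP-1 site (TGACTCA, 4.46%), an Egr site written as GCGTGGGCG or GCGGGGGCG (3.06%) or a TATA box written as TATAAA (12.4%). RefSeq lists 7 start sites for the 4 genes, and not all are alike: the third of Grm8 had 43.6% G and C and no match, and the second of Grm8 had no GC box. These matches describe letters in a window and not bound sites.

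Group I was represented by Grm5, which encodes mGlu5, the receptor that drives calcium release and long-term depression at hippocampal synapses. Grm5 (ENSMUSG00000049583) lies at chr7:87584168-88134907 on the plus strand of GRCm38. Its log2 values were 4.35, 4.28 and 4.47 in Control replicates 1, 2 and 3 and 4.70, 4.59 and 3.86 in MA replicates 1, 2 and 3. MA replicates 1 and 2 lay above all control libraries and MA replicate 3 lay below all of them, so the groups overlapped. The means were 4.37 ± 0.10 in the control group and 4.39 ± 0.46 in the MA group (SD, n = 3 each). The log2 fold change, MA minus Control, was 0.02 with a standard error of 0.21 and a 95% confidence interval from -0.47 to 0.51 (limma adjusted p = 0.987 over the 13321 tested genes). Without MA replicate 3 the log2 fold change of Grm5 was 0.28, with an interval from 0.08 to 0.48 and a limma adjusted p of 0.124.

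**Figure D1:**
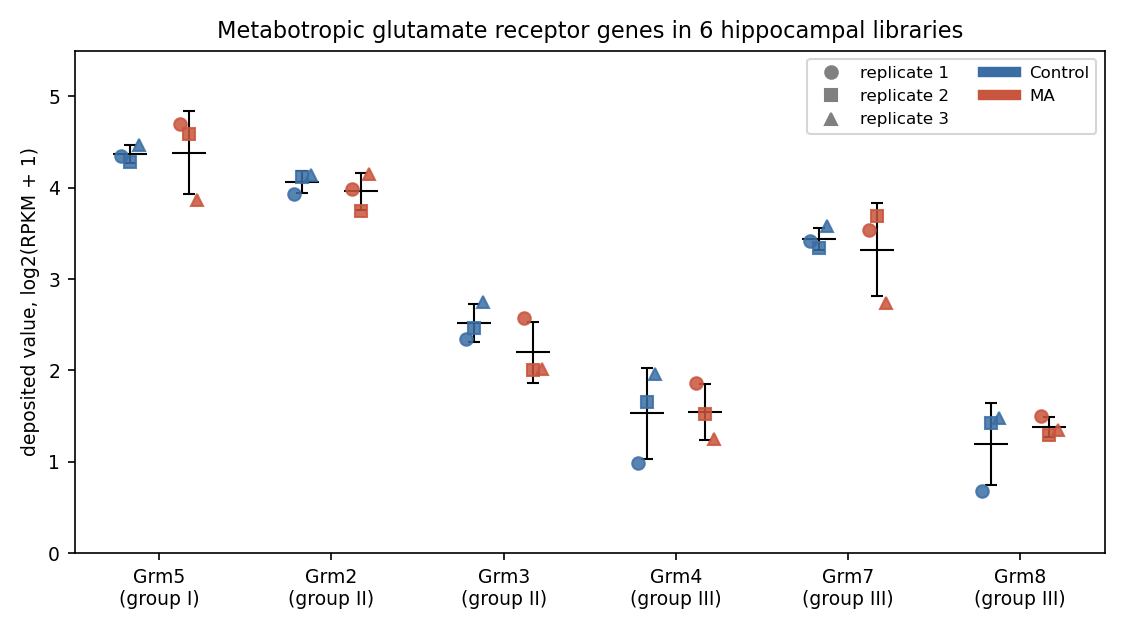
Deposited value, log2(RPKM + 1), of each receptor gene (x axis) in the 3 control and 3 MA libraries. Points are single libraries, blue for Control and red for MA, with a symbol shape for each replicate number, and black bars are the group mean ± SD. Grm5 and Grm2 lie highest and Grm4 and Grm8 lowest, and the control and MA points overlap for all 6 genes.

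Both group II genes had lower means in the libraries labelled MA, and neither passed the test. Grm3 encodes mGlu3, which responds to the peptide transmitter NAAG as well as to glutamate and is found on astrocytes. Grm3 (ENSMUSG00000003974) lies at chr5:9485541-9725170 on the minus strand of GRCm38. Its log2 values were 2.35, 2.47 and 2.75 in Control replicates 1, 2 and 3 and 2.58, 2.0 and 2.01 in MA replicates 1, 2 and 3. MA replicates 2 and 3 lay below all control libraries, while MA replicate 1 lay within the control range. MA minus Control, the difference was -0.32 on the log2 scale (limma adjusted p = 0.609, SE 0.19), with a 95% confidence interval from -0.76 to 0.11, which spans ratios of RPKM plus 1 from 0.591 to 1.08. Over all tested genes 90.1% had a smaller difference in size. With single libraries left out, the log2 fold change of Grm3 lay between -0.51 without MA replicate 1 (limma adjusted p = 0.424) and -0.21 without Control replicate 3 (limma adjusted p = 0.874). Summed markers of astrocytes reached 1092 to 1198 in back-transformed RPKM in the control libraries. In MA replicates 1, 2 and 3 they were 1318, 1294 and 980. The part of astrocytes in the Grm3 values was not tested.

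Grm2, the other group II gene, encodes mGlu2, an autoreceptor on glutamatergic terminals. Grm2 (ENSMUSG00000023192) lies at chr9:106643095-106656082 on the minus strand of GRCm38. It had log2 values of 3.93, 4.12 and 4.14 in the control libraries and 3.98, 3.75 and 4.15 in MA replicates 1, 2 and 3. The highest and the lowest of the 6 values were both in libraries labelled MA. MA minus Control, it differed by -0.10 on the log2 scale (95% confidence interval from -0.39 to 0.19, limma adjusted p = 0.839, SE 0.12), the narrowest interval among the receptors. Of the 6 receptors, Grm2 also had the smallest residual spread, an SD of 0.17 around the group means, against a median of 0.15 over all tested genes. Summed markers of dentate granule cells, in which mGlu2 is known, lay between 84.7 and 115.6 in the control libraries and between 80.6 and 95.4 in the MA libraries (back-transformed RPKM).

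Group III covered a gene near the middle of the tested genes and 2 low genes. Grm7 encodes mGlu7, the receptor of the presynaptic active zone with low affinity for glutamate. Grm7 (ENSMUSG00000056755) lies at chr6:110645581-111567230 on the plus strand of GRCm38. Its log2 values were 3.42, 3.34 and 3.58 in the control libraries and 3.54, 3.69 and 2.74 in MA replicates 1, 2 and 3. As for Grm5, MA replicate 3 was the lowest library and the other 2 MA libraries lay within or above the control range. The log2 fold change was -0.12 (standard error 0.24, 95% confidence interval from -0.68 to 0.43, limma adjusted p = 0.907) and turned to 0.17 without MA replicate 3 (limma adjusted p = 0.366).

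Grm4 and Grm8 encode mGlu4 and mGlu8, presynaptic receptors with higher affinity for glutamate, and both were near the low end of the tested genes. Grm4 (ENSMUSG00000063239) lies at chr17:27422387-27521403 on the minus strand of GRCm38. Grm8 (ENSMUSG00000024211) lies at chr6:27275119-28135178 on the minus strand of GRCm38. An exon of Grm8 overlaps the miRNA gene Mir592. Grm4 had log2 values of 0.99, 1.66 and 1.96 in Control replicates 1, 2 and 3 and 1.86, 1.53 and 1.25 in MA replicates 1, 2 and 3. For Grm8 the values were 0.68, 1.43 and 1.48 in the control libraries and 1.5, 1.29 and 1.34 in the MA libraries. In both genes the lowest of the 6 libraries was Control replicate 1, by 0.82 for Grm4 and 0.77 for Grm8 below the mean of the other 2 control libraries. The log2 fold changes were 0.01 for Grm4 (95% confidence interval from -0.61 to 0.63, limma adjusted p = 0.993) and 0.18 for Grm8 (from -0.32 to 0.69, limma adjusted p = 0.835). Both turned negative when Control replicate 1 was left out, at -0.26 for Grm4 and -0.08 for Grm8, with limma adjusted p-values of 0.924 and 0.971. Differences on the scale of RPKM plus 1 understate changes of genes this low, and with a pseudocount of 0.01 in place of 1 the log2 fold change of Grm8 was 0.38 and that of Grm4 was 0.06. Summed markers of the thalamus, a region next to the hippocampus, were between 25.1 and 40.6 in the control libraries (back-transformed RPKM). In MA replicates 1, 2 and 3 they were 75, 82.6 and 26. Of the 10 tested markers, 10 had a log2 fold change above 0. In limma 0 passed the adjusted threshold and 3 had an unadjusted p under 0.05, beside 0.263% and 10.4% of all tested genes.

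None of the 6 receptor genes passed an adjusted p of 0.05 in limma, where 0.263% of the 13321 tested genes did. At an unadjusted p under 0.05 the count was 0 of 6 as well, beside 10.4% of all tested genes. The control and MA values overlapped in 6 of 6 receptors, while the groups stood apart in 17.5% of tested genes. Without MA replicate 3, 0 of 6 receptors passed and 1.93% of tested genes did, and with libraries weighted by their estimated variance these were 0 of 6 and 4.4%. By direction, 3 log2 fold changes were above 0 (Grm4, Grm5 and Grm8) and 3 below (Grm2, Grm3 and Grm7). Both group II genes were below 0, and group III was split. The exact two-sided permutation test of 3 against 3, which cannot go under 0.1, gave p-values from 0.3 for Grm3 to 1 for Grm4 and Grm5. As ratios of RPKM plus 1, the intervals reached as high as 1.61 for Grm8 and as low as 0.591 for Grm3. They understate the range in RPKM itself: with a pseudocount of 0.01 the interval of the log2 fold change ran from -0.59 to 1.35 for Grm8, from -0.93 to 1.04 for Grm4 and from -0.95 to 0.14 for Grm3.

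**Figure D2:**
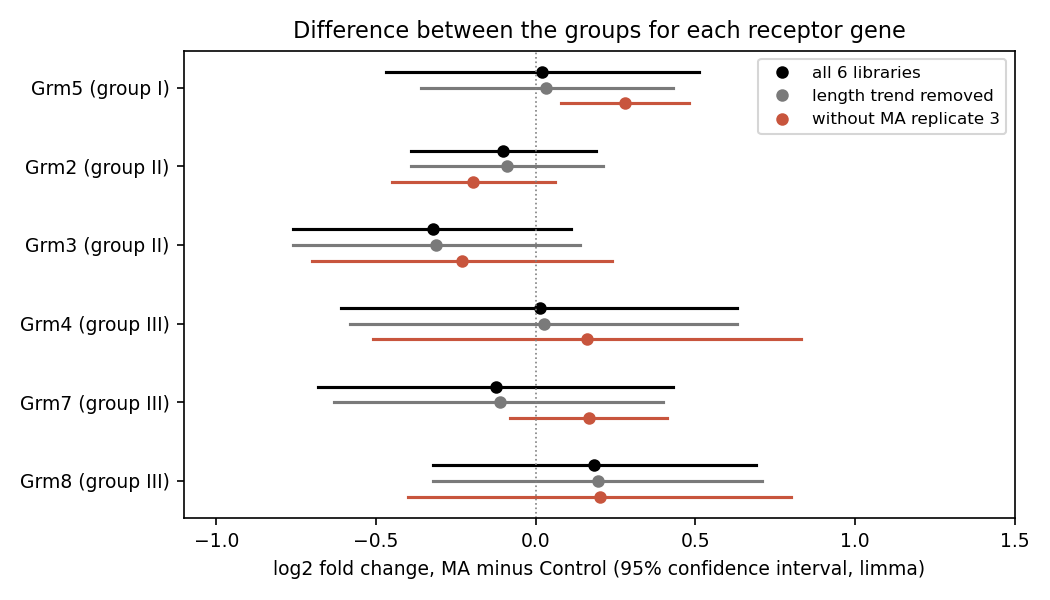
Log2 fold change of each receptor gene, MA minus Control (x axis), with its 95% confidence interval from limma, for all 6 libraries, for values with each library's exonic length trend removed, and without MA replicate 3. With all 6 libraries every interval includes 0; without MA replicate 3 that of Grm5 runs from 0.08 to 0.48.

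Per length, the levels fell into the order Grm5, Grm2, Grm7, Grm3, Grm4 and Grm8, with means over the 6 libraries of 4.38, 4.01, 3.38, 2.36, 1.54 and 1.29 on the log2 scale. In back-transformed RPKM the control means were 19.7 ± 1.4 for Grm5, 15.8 ± 1.3 for Grm2, 9.91 ± 0.93 for Grm7, 4.77 ± 0.84 for Grm3, 2.01 ± 0.96 for Grm4 and 1.36 ± 0.66 for Grm8 (SD, n = 3). Each of the 5 neighboring pairs in this order was compared within libraries by an exact two-sided sign-flip permutation test. The order was taken from the same 6 libraries, so the p-values describe only how steadily it recurs among them. They do not cover errors common to all libraries, such as in gene length or from antisense reads. Grm2 was above Grm7, Grm7 above Grm3 and Grm3 above Grm4 in 6 of 6 libraries, by 0.63, 1.02 and 0.82 (exact p = 0.0312 for each, the smallest that 6 libraries allow, and 0.0521 adjusted over the 5 pairs). Grm5 lay above Grm2 in 5 of 6 libraries, by 0.36 ± 0.41 (SD), and Grm4 above Grm8 in 5 of 6, by 0.25 ± 0.19. Both exceptions were MA replicate 3. The exact p-values of these 2 pairs were 0.0938 and 0.0625 (0.0938 and 0.0781 adjusted), and none of the 5 pairs passed 0.05 after adjustment. The ranges over the 6 libraries overlapped for Grm5 and Grm2, for Grm7 and Grm3 and for Grm4 and Grm8, and stood apart for the other 2 pairs.

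Summed within each group, the back-transformed levels gave group I and group II nearly equal parts of the total in the control libraries. Group I, which is Grm5 alone here, made up 36.9% ± 2.4 of the 6 genes' sum, group II 38.4% ± 1.4 and group III 24.7% ± 1.7 (SD, n = 3). In the MA libraries the shares were 39.0% ± 5.9, 36.3% ± 9.7 and 24.6% ± 3.9. The larger spread came from libraries that moved in opposite ways: group II held 28.7% of the sum in MA replicate 2 and 47.2% in MA replicate 3. The sum of all 6 genes was lowest in MA replicate 3, at 42.0 RPKM, and highest in MA replicate 1, at 59.9 RPKM, while the control libraries lay between 48.9 and 59.2 RPKM.

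**Figure D3:**
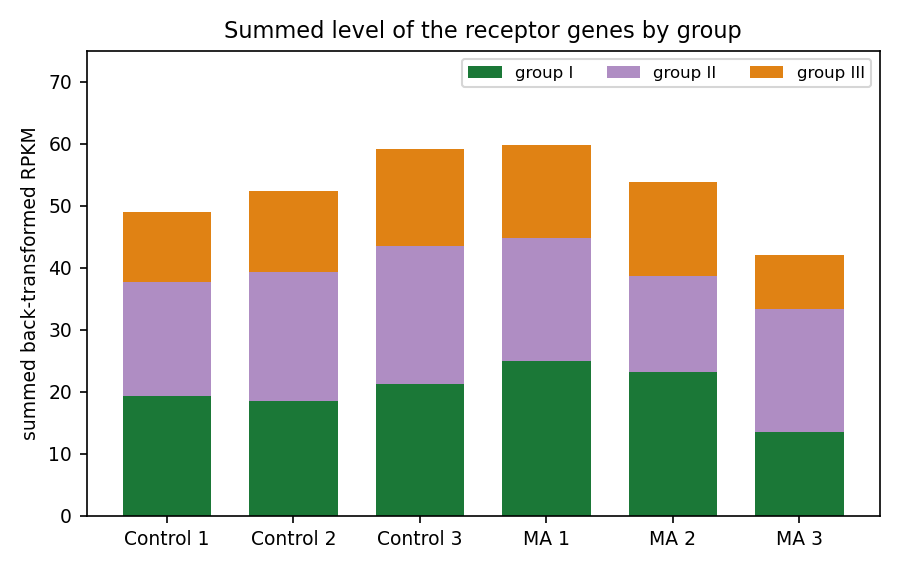
Summed back-transformed RPKM of the receptor genes of each group (y axis) in each library (x axis), stacked as group I (Grm5), group II (Grm2 and Grm3) and group III (Grm4, Grm7 and Grm8). The total is lowest in MA replicate 3, where groups I and III are small and group II takes 47.2%.

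Most of the receptors varied more between mice of a group than a typical gene did. The residual SD around the group means was 0.33 for Grm5, 0.27 for Grm3, 0.41 for Grm4, 0.37 for Grm7 and 0.32 for Grm8, higher than in 84.9% to 95.7% of tested genes. For Grm5 and Grm7 the spread came from MA replicate 3, which lay 0.78 and 0.87 below the mean of MA replicates 1 and 2. Only 2.58% and 1.77% of tested genes lay lower in that comparison. Grm2 ran the other way, 0.29 above the other MA libraries.

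MA replicate 3 also differed from the other 5 libraries by gene length. Its median deviation was 0.12 for the 3711 tested genes with an exonic length under 3 kb and -0.13 for the 4367 genes of 6 kb or more, and the correlation of its deviation with log2 exonic length was -0.307 across genes, which are not independent replicates. In the other libraries this correlation lay between -0.119 and 0.183. After each library's trend with exonic length was removed, MA replicate 3 still lay 0.61 below the other MA libraries for Grm5 and 0.80 below for Grm7, and the log2 fold changes of the group comparison were 0.03 and -0.11. Choroid plexus markers were highest in this library too, with a summed level of 5084 RPKM against 1778 and 2309 in MA replicates 1 and 2. Control replicate 1, lowest for Grm4 and Grm8, had the lowest choroid plexus sum of all, at 64.7 RPKM. MA replicate 3, with the highest sum, lay below Control replicates 2 and 3 for both genes. A link between these levels and the choroid plexus sum was not tested.

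**Figure D4:**
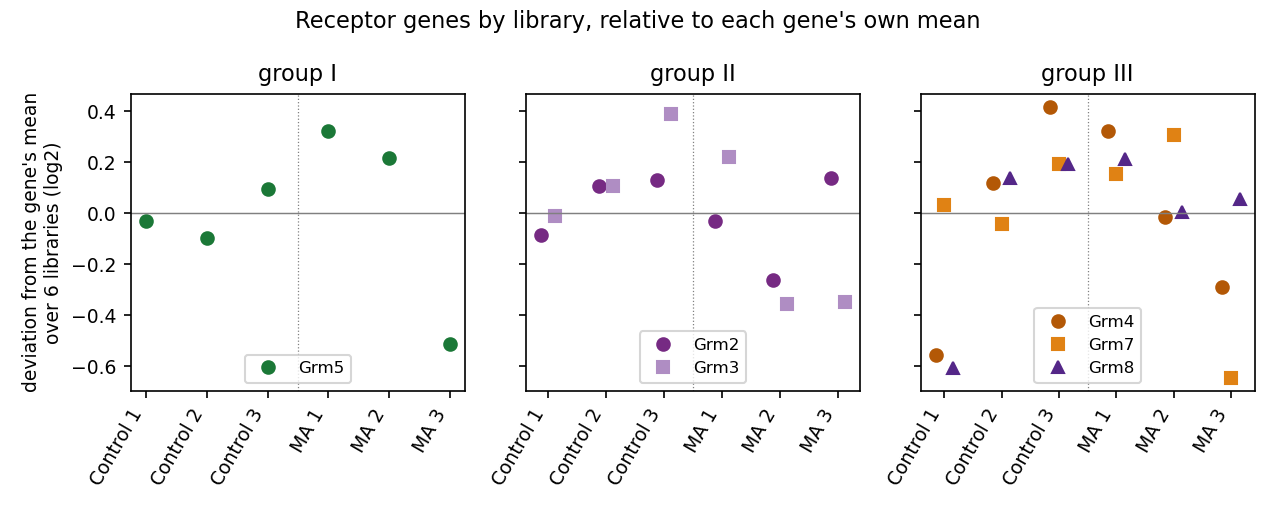
Deviation of each receptor gene from its own mean over the 6 libraries (y axis, log2) in each library (x axis), by receptor group, with a dotted line between the control and MA libraries. Grm5 and Grm7 are lowest in MA replicate 3, and Grm4 and Grm8 are lowest in Control replicate 1.

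Across the 6 libraries the correlations between receptors differed from pair to pair, and several depended on which libraries were kept. Of the 15 pairs, Grm5 and Grm7 had the highest correlation, with Pearson's r = 0.94 (exact permutation p = 0.0111, adjusted p = 0.0833 over the 15 pairs) and Spearman's rho = 0.83 (exact permutation p = 0.0583, adjusted 0.385). Without MA replicate 3, r was 0.76, and without the 2 libraries farthest from the median of Grm5 (MA replicates 1 and 3) it was 0.997 over 4 libraries. Grm4 and Grm8 followed with r = 0.86 (exact permutation p = 0.0097, adjusted 0.0833) and rho = 0.89 (exact permutation p = 0.0333, adjusted 0.385), and r was 0.78 without the 2 libraries farthest from the median of Grm4 (Control replicates 1 and 3). Grm2 had negative coefficients with both Grm5 and Grm7, at r = -0.57 and -0.58 (exact permutation p = 0.249 and 0.219, adjusted 0.631 for both). The group II pair Grm2 and Grm3 had r = 0.42 (exact permutation p = 0.400, adjusted 0.631). For this pair r was 0.89 without MA replicate 3. It was -0.33 without the 2 libraries farthest from the median of Grm2 (Control replicate 1 and MA replicate 2). Without Control replicate 1, r was 0.92 for Grm3 and Grm4 and 0.95 for Grm3 and Grm8, against 0.64 and 0.26 over all 6 libraries. No pair passed 0.05 after adjustment.

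With 6 libraries many genes share a profile, so the genes most like each receptor are given only as a description, out of 13315 others. For Grm5 these were Vti1a, a SNARE protein of endosomal traffic, and Trp53inp1, both with r = 0.998, and 1046 genes had an r over 0.9. Grm7 was closest to Rbfox3, the gene of the neuronal nuclear antigen NeuN, and to Klhl34, with r over 0.999 for each and 799 genes over 0.9. The other 4 receptors had between 86 and 146 genes over 0.9. Grm4 was closest to Pparg and Fam32a (r = 0.998 and 0.996, 146 genes over 0.9). For Grm8 the closest were the potassium channel gene Kcns1 and the organic anion transporter gene Slc22a8 (r = 0.993 and 0.990, 86 genes over 0.9). In group II, Grm3 was closest to Adora2a, an adenosine receptor gene, and Tbr1, a transcription factor of cortical projection neurons (r = 0.994 and 0.991). Grm2 was closest to Sgk2 and Nfix (r = 0.979 and 0.977).

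Genes that act with the receptors were taken from 7 lists, with 103 genes tested in all. Of these, 1 passed the adjusted threshold, Arc, and 13 had an unadjusted p under 0.05 (12.6%, beside 10.4% of all tested genes), of which 7 had higher and 6 lower MA means. The median log2 fold change of the 103 genes was -0.006, and that of all tested genes was -0.010.

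Downstream of group I receptors, 0 of 16 genes for Gq coupling and its effectors passed the threshold in limma, and the median log2 fold change was -0.05. Prkcb, a protein kinase C gene, had log2 values of 7.94, 8.09 and 7.81 in the control libraries and 7.56, 7.69 and 7.88 in MA mice, a difference of -0.24 (limma adjusted p = 0.511). Of the 16 group I scaffold genes, 0 passed as well, while 4 had an unadjusted p under 0.05. Homer1 encodes the adaptor that links group I receptors to Shank and to calcium stores, and its short form is induced by activity. Homer1 had log2 values of 5.30, 4.95 and 5.17 in the control libraries and 4.50, 4.42 and 3.81 in the MA libraries, so the groups did not overlap. The difference was -0.90 on the log2 scale (limma adjusted p = 0.183, SE 0.19), and the adjusted p was 0.0423 without MA replicate 3, 0.0292 with library weights and 0.330 when the fit was blocked by replicate number. The gene's total does not separate the short from the long forms. Shank1, a scaffold of the postsynaptic density, was at 4.69, 5.12 and 5.21 in the control libraries and at 5.82, 5.89 and 5.21 in the MA libraries (log2 fold change 0.63, limma adjusted p = 0.360).

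Among 9 effectors of receptor-dependent long-term depression, 1 passed. Arc, which promotes the removal of AMPA receptors from synapses and is translated on group I receptor activation, fell in the libraries labelled MA by 1.80 on the log2 scale (limma adjusted p = 0.0181, SE 0.15). Its log2 values were 6.67, 6.23 and 6.22 in the control libraries and 4.77, 4.40 and 4.54 in the MA libraries. Every MA library lay below every control library. The paper instead reports Arc as upregulated by MA, by sequencing and by qPCR, which is the opposite direction. Its list of changed genes, headed as control versus methamphetamine-treated mice, gives Arc a positive value. The reason for the opposite sign, including whether the column labels are in order, was not tested. When Control replicate 2, Control replicate 3 or MA replicate 2 was left out, 0 genes of the 7 lists passed, Arc included. Arc was placed on its list with its difference already known. Eef2k, the kinase of elongation factor 2, was at 0.34 (limma adjusted p = 0.530).

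Of the 27 genes for Gi and Go coupling, adenylyl cyclases and target channels used by groups II and III, 0 passed in limma and 3 had an unadjusted p under 0.05. Adcy6, an adenylyl cyclase that these receptors inhibit, had log2 values of 2.78, 2.75 and 2.82 in the control libraries and 3.20, 3.21 and 3.06 in the MA libraries. Each MA library lay above each control library, and the group means differed by 0.37 on the log2 scale (limma adjusted p = 0.238, SE 0.09). Adcy5, another cyclase, was at 0.59 (limma adjusted p = 0.370, SE 0.20). For Adcy6 the limma adjusted p was 0.0275 with library weights, 0.0567 without MA replicate 3 and 0.705 with the replicate block, and for Adcy5 these were 0.0345, 0.0539 and 0.752. Of the 8 synaptic partners of group III receptors, 0 passed and 0 had an unadjusted p under 0.05. Pick1, which binds the tail of mGlu7, was at 0.17 (limma adjusted p = 0.580), and Grip2 at 0.19 (limma adjusted p = 0.751).

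For receptor desensitization, 0 of 9 tested genes passed in limma and 1 had an unadjusted p under 0.05. That gene was Adrbk2, a G-protein-coupled receptor kinase, with a log2 fold change of 0.35 (limma adjusted p = 0.413), and Rgs2, which shortens Gq signals, was at -0.22 (limma adjusted p = 0.602). Of the 18 genes for the supply and clearance of glutamate and NAAG, 0 passed and 3 had an unadjusted p under 0.05. Slc38a3, a glutamine transporter of astrocytes, differed by 0.30 on the log2 scale (limma adjusted p = 0.347, SE 0.10). Slc17a8, a vesicular glutamate transporter gene, was at -0.31 (limma adjusted p = 0.388).

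**Figure D5:**
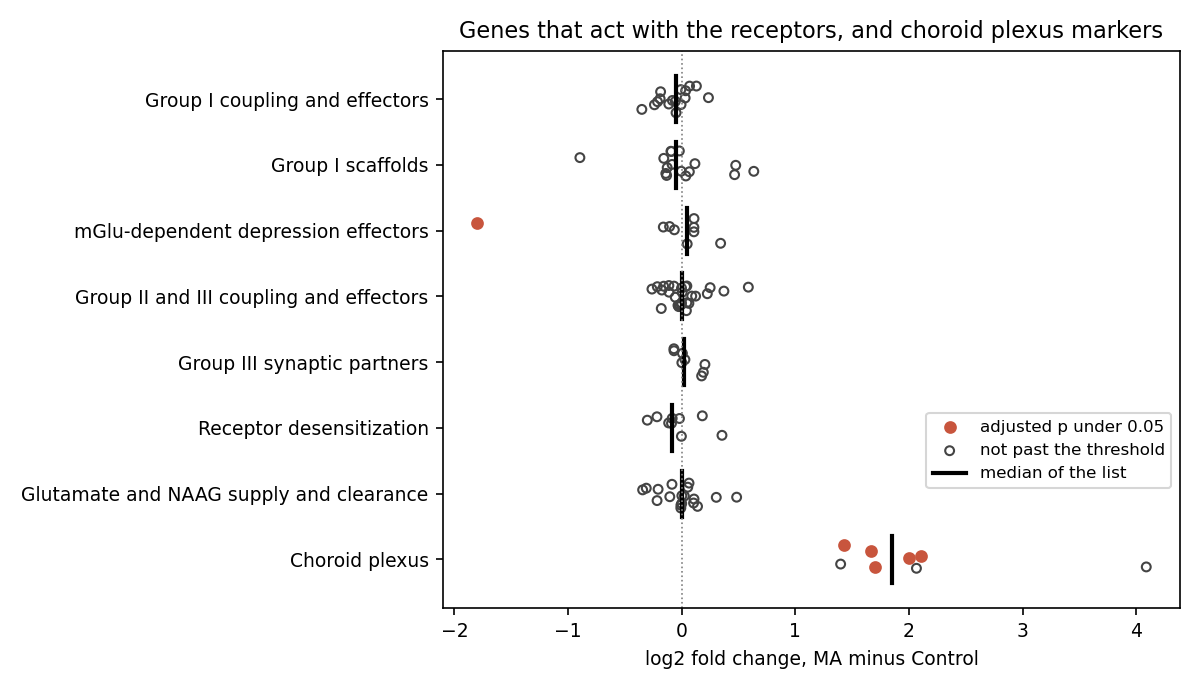
Log2 fold change, MA minus Control (x axis), of each tested gene in the 7 lists of genes that act with the receptors and in the choroid plexus list (y axis). Filled points passed an adjusted p of 0.05 in limma and black bars are list medians; Arc at -1.80 is the filled point among the 7 lists, and the choroid plexus median is 1.85.

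The 8 choroid plexus markers moved with the group in every gene. Folr1, a folate receptor gene, rose with a log2 fold change of 2.10 (limma adjusted p = 0.0456), Clic6 with 2.0, Slc4a5 with 1.70 and Aqp1, a water channel gene, with 1.67 (limma adjusted p = 0.0315 for each), and Kl with 1.43 (limma adjusted p = 0.0325). With the replicate number as a block 2 of these 5, Aqp1 and Clic6, passed, with limma adjusted p-values of 0.0391 and 0.0441. Ttr and Kcne2 passed only with the block, at limma adjusted p-values of 0.0227 and 0.0441, against 0.0887 and 0.0975 without it. Otx2 passed in neither fit. The sum of the 8 markers was higher in each MA library than in each control library. Its relation to the receptor values was not tested. Markers of 9 of the other 10 cell types and regions searched, from excitatory neurons and interneurons to astrocytes, oligodendrocytes and microglia, had list medians between -0.20 and 0.07, the thalamic list had 0.39, and 0 of their tested genes passed the threshold in limma.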

How the data were processed

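Hippocampal RNA of 3 control and 3 MA mice was sequenced as paired-end reads, which the methods say were aligned with Hisat2 and counted with featureCounts before FPKM were calculated. The submitters' processing notes name Bowtie 0.12.2 and the builds mm8 and mm9 instead. The authors deposited 1 table of values named as RPKM that lie on a log2 scale. Read as log2 with an offset of 1, the values weighted by exonic length gave library sums that exceed what RPKM allows by a factor of 1.78 to 1.88, and read as natural or base 10 logarithms they exceeded it by far more, so the log base is inferred. The log transform and the scaling between libraries are not described. Depth is unknown, and n limits the precision.

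Tested were the 13321 of 16060 rows that reached 0.5 RPKM, back-transformed, in 3 or more libraries. MA and Control were compared by limma 3.58.1 (R 4.3.3) with a trend on the mean level, no covariate and Benjamini-Hochberg adjustment over all tested genes. Single receptors were also tested by exact permutation in scipy 1.17.1. The test was checked on simulated data. The members and gene lists were chosen with earlier results of these data known. The text names the 6 receptors, the 2 genes of smallest p and any passing gene in each of the 7 lists, passing marker genes, and the 2 genes most correlated with each receptor. A gene that this rule names in 1 list is not reported here. Alternatives were other filters, pseudocounts, scalings and variance models, library weights, a replicate block, leaving out each library and, added after the data were seen, removal of each library's trend with exonic length (lowess, span 0.3). GENCODE M21 on GRCm38 gave locations only, and 15987 of 16031 identifiers matched. Promoters are RefSeq's. Protein sequences were not analysed here.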

Additional observations from a re-analysis of the deposited data

How the results depend on the processing

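No receptor gene passed the adjusted threshold of 0.05 in limma under any of the 16 alternatives (93 single fits, lowest adjusted p 0.124, 3 with an unadjusted p under 0.05). With a minimum mean of 5, Grm3, Grm4 and Grm8 had no value. The direction turned for Grm7 with library weights, at 0.17, and when single libraries were left out the log2 fold change ranged from -0.14 to 0.28 for Grm5, from -0.20 to 0.004 for Grm2, from -0.51 to -0.21 for Grm3, from -0.26 to 0.22 for Grm4, from -0.31 to 0.17 for Grm7 and from -0.076 to 0.32 for Grm8. The libraries that turned it were Control replicate 2 and MA replicates 1 and 2 for Grm5, MA replicate 2 for Grm2, Control replicate 1 and MA replicate 1 for Grm4, MA replicate 3 for Grm7 and Control replicate 1 for Grm8. The order of the levels kept its direction for all 5 neighboring pairs under every alternative run on it.

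Among all tested genes, 35 passed in limma, 3 with no filter, 20 with a minimum mean of 5, 586 with library weights (6 of them in the 7 lists) and 0 to 257 with single libraries left out (0 to 3 in the lists): 0 without Control replicate 2, Control replicate 3 or MA replicate 2, 3 without Control replicate 1, 15 without MA replicate 1 and 257 without MA replicate 3. The cause was not tested. Deviations of same-numbered libraries correlated at -0.197, -0.242 and -0.337, and no library matched its own number best. With 3 libraries per group, these values cannot decide whether same-numbered libraries were handled together. Blocking on the replicate number left 15 genes past the threshold, Arc among them (limma adjusted p = 0.0227) and 0 receptors. With 3 mice per group and unknown depth, any difference inside the interval given for a receptor remains compatible with its values. The intervals are not limits of detection.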
